A study of Mus musculus with 56 samples.

Results

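Sex differences in gene expression were examined in the gastrocnemius of control mice housed with locked wheels, comparing 7 females (group FC) with 7 males (group MC). These 14 mice are part of 56 in the series, and they were taken by the labels that give a control mouse, its sex and the baseline treatment. Only genes on autosomes are described, 14975 of the 15539 genes in the count table, of which 13013 passed a filter on low counts. All 14 mice were C57Bl/6, were fed chow and carried floxed Elavl1 alleles (HuR fl/fl, Elavl1 being the gene for the RNA-binding protein HuR) without the Cre transgene of their littermates. They were 5 months of age per the labels, and the wheels were in place from 10 to 20 weeks of age. A further 14 controls (7 females, FCE, and 7 males, MCE) of the same strain, age and alleles had wheels that turned, for 10 weeks of voluntary running. Mice lacking HuR in muscle fibers, with Cre driven by the Mlc1f promoter, provided 7 females (FH) and 7 males (MH) with locked wheels, and these shared the estimate of the spread.

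Library depth was 8519862 to 14375522 counts in the females and 6803401 to 17488833 in the males, and mitochondrial transcripts took 25.6% to 30% of the counts. Xist was between 129 and 156 CPM (read counts scaled by library size and composition) in every female and at most 4.42 CPM in every male, while Ddx3y was at most 0.537 CPM in females and at least 105 CPM in males, so all 14 mice matched their labelled sex. Elavl1 was 38.3 to 47.6 CPM in females and 41.0 to 60.4 CPM in males, and did not pass the test (adjusted p = 0.0976). In 4 mice, FC12, FC15, FC16 and MC19, the summed markers of liver exceeded 1000 CPM (1271, 5925, 1173 and 1502 CPM, against 126 to 523 CPM in the other 10), and counts that lead a result below are also given without them.

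Skeletal muscle fibers differ in the isoforms of myosin, troponin and calcium pump they make. Slow fibers contract slowly, resist fatigue and rely on oxidative metabolism, whereas fast fibers contract rapidly and draw on glycogen and glycolysis. The gastrocnemius holds both kinds, and fiber composition, growth signals and the polyamine pathway in muscle are all known to respond to sex hormones. Polyamines are small cations made from ornithine and from S-adenosylmethionine, and their synthesis is limited by ornithine decarboxylase (Odc1) and S-adenosylmethionine decarboxylase (Amd1, and its close copy Amd2).

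The 250 bases upstream of the annotated starts of the 4 polyamine genes with the largest sex differences are shown because these genes moved together and in the same direction. They are from RefSeq (GRCm38.p6), 5′ to 3′ on the strand of the gene, and capitals mark the GC box GGGCGG on either strand. GENCODE places the starts of Smox and Odc1 upstream of the RefSeq starts, so that the Smox window lies within the GENCODE gene and the Odc1 window spans its start.
Amd1 (chr10:40302189-40302438, minus strand): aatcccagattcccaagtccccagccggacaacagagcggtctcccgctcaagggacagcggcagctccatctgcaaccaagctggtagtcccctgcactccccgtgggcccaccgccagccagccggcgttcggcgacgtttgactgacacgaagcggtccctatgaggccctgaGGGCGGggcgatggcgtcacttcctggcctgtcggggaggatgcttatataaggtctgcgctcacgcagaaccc
Amd2 (chr10:35711892-35712141, minus strand): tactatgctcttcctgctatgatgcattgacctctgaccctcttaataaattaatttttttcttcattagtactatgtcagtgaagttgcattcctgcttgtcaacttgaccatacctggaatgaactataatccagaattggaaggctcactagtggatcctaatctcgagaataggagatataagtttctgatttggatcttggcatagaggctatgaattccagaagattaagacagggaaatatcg
Smox (chr2:131491612-131491861, plus strand): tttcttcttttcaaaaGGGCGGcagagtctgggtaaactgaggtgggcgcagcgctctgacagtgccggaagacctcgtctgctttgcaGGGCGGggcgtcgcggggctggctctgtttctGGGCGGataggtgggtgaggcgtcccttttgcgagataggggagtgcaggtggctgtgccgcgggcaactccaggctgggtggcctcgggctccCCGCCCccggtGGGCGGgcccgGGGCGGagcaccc
Odc1 (chr12:17544623-17544872, plus strand): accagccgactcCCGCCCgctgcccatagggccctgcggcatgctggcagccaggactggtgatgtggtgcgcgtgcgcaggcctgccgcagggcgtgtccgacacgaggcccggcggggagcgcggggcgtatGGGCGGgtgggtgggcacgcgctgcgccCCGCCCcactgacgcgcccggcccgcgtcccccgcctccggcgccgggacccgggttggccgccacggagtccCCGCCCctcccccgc
The GC box occurred 1 time upstream of Amd1, 6 times upstream of Smox, 4 times upstream of Odc1 and not upstream of Amd2, and 32.7% of 32851 promoter windows of the same length held it. Neither the hexamer AGAACA, the core of the androgen response element, nor TATAAA, a form of the TATA box, was found on either strand of these 4 windows. Of all windows, 16.1% and 12.4% held them. Only these exact letters were searched, and the Amd1 window holds the related TATATAA near its end, so a TATA box there is not excluded. No window here held 2 AGAACA hexamers facing each other with 3 bases between, which 3 of the 32851 windows did. The Amd1 and Amd2 windows differed in base composition, with 64.4% and 37.6% G and C, yet from their start sites onward they shared an identical run of 48 bases.

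Amd1, Amd2, Odc1 and Smox, enzymes that make and convert polyamines, were lower in females. Amd1 (ENSMUSG00000075232, chr10:40287458-40302186 on GRCm38) was 45.1, 38.6, 53.9, 54.1, 49, 43 and 49.7 CPM in the 7 females and 503, 371, 448, 354, 455, 378 and 378 CPM in the 7 males. Every female was under every male, by 8.62-fold on average (log2 fold change -3.11 ± 0.21, adjusted p = 3.42e-12, limma; errors are SE and fold changes are female minus male throughout, and a bare value after a gene is its log2 fold change). Amd2 (ENSMUSG00000063953, chr10:35708675-35711892) gave 1.99 to 4.83 CPM (median 2.69) in females and 22.6 to 56.1 CPM (median 29.8) in males (log2 fold change -3.54 ± 0.41, adjusted p = 3.56e-07). The share of reads between these genes is uncertain, since 84.4% of the 50-base stretches of Amd1 transcripts also occur in those of Amd2, and 50 bases is the read length in the labels.

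Spermine oxidase, Smox (ENSMUSG00000027333, chr2:131491496-131525922), which turns spermine back into spermidine, was 51.8, 57.1, 50.8, 50.7, 54.9, 48 and 63.8 CPM in females and 273, 232, 232, 171, 142, 232 and 248 CPM in males (4.0-fold lower in females; log2 fold change -2.0 ± 0.26, adjusted p = 2.5e-06). Odc1 (ENSMUSG00000011179, chr12:17544794-17551505) was 4.21, 4.14, 1.88, 3.42, 1.40, 3.33 and 4.19 CPM in females and 12.9, 12.3, 16.5, 10.7, 19.9, 10.02 and 10.9 CPM in males (4.18-fold lower; log2 fold change -2.07 ± 0.27, adjusted p = 3.17e-06). Neither gene had a female that reached the lowest male. The antizyme Oaz1, which binds ornithine decarboxylase and sends it for degradation, was also lower in females but with overlapping mice, 53.5 to 69 CPM (median 59.8) in females and 66.1 to 97.3 CPM (median 83.6) in males (log2 fold change -0.40 ± 0.11, adjusted p = 0.0104). Spermidine synthase, Srm, did not pass the test (log2 fold change 0.40 ± 0.18, adjusted p = 0.119).

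In all, 5 of the 15 polyamine genes tested were lower in females and 1, the transporter subunit Slc3a2 (log2 fold change 0.32 ± 0.07, adjusted p = 0.00232), was higher, where 9.99% of all autosomal genes tested were called lower and 9.61% higher. The median of the 15 was -0.15, against 0.01 for all autosomal genes tested. The sexes did not overlap for 4 of the 5 lower genes, where 3.84% of all autosomal genes tested were called lower and 3.19% higher without overlap. Summed over the list, the level was 311 to 349 CPM (median 329) in females and 792 to 1080.1 CPM (median 880.3) in males, without overlap. Without the 4 mice with liver markers, an alternative chosen after seeing the data, 5 were still called lower and Slc3a2 was not called higher. Adipocyte markers, described below, were higher in females. With their mean as a covariate 4 polyamine genes were lower. Of all autosomal genes, 187 of the 1300 lower calls and 110 of the 1251 higher calls remained. Because these markers differ by sex, calls lost with this covariate, here and below, cannot be assigned to adipocyte content or to sex.

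The same enzymes differed with the wheels turning. In running controls, where 4.03% of autosomal genes were called higher and 5.02% lower in females, the log2 fold changes were -3.11 (adjusted p = 6.5e-13) for Amd1, -2.92 (adjusted p = 6.85e-07) for Amd2, -2.13 (adjusted p = 4.28e-08) for Smox and -2.11 (adjusted p = 1.06e-06) for Odc1. No polyamine gene was among the genes whose sex difference differed between locked and running controls, which were 8.74% of those tested. In locked mice lacking HuR in muscle, the corresponding values were -2.70 (adjusted p = 2.07e-10), -3.44 (adjusted p = 5.07e-06), -2.16 (adjusted p = 2.98e-06) and -1.31 (adjusted p = 0.000634), from mice not used in the control values, and 0% of autosomal genes had a sex difference that differed between the genotypes (0 of 13013 by limma and 0 by edgeR's quasi-likelihood test, with 896 at an unadjusted p under 0.05).

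**Figure D1:**
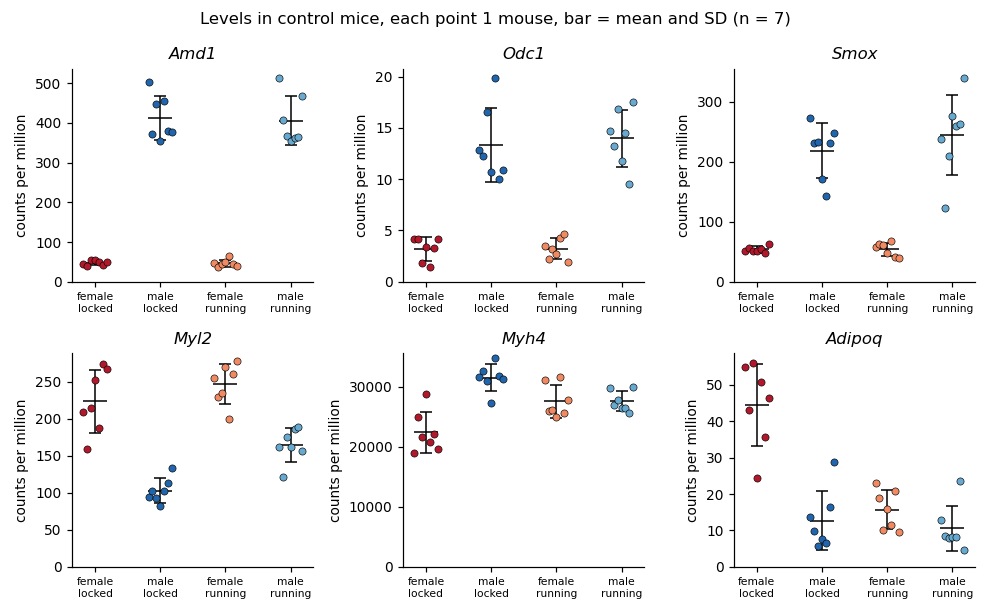
Levels of 6 genes in CPM (y axis, linear, from 0) in locked and running control mice of each sex, with points for mice and bars for the mean and SD (n = 7 per group); locked and running mice were scaled separately. Amd1, Odc1 and Smox separate the sexes completely in locked mice, Myl2 does so with females higher, and Myh4 is lower in locked females with 1 female inside the male range.

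Slow-fiber contractile genes were higher in females. Of 12 tested, 7 were called higher and none lower, with a median of 0.68, and 11 of the 12 had a positive fold change. Myl2, the slow myosin regulatory light chain, was 209.5, 159, 214, 253, 188, 274 and 267 CPM in females and 93.9, 103, 93.2, 81.4, 102, 114 and 134 CPM in males, and no female fell within the male range (2.15-fold; log2 fold change 1.11 ± 0.23, adjusted p = 0.000699). Slow troponin T, Tnnt1, was 137 to 203 CPM (median 177) in females and 70.8 to 124 CPM (median 86.1) in males (log2 fold change 0.92 ± 0.23, adjusted p = 0.00368). The cardiac and slow calsequestrin Casq2, a calcium buffer of the sarcoplasmic reticulum, was 53.3 to 77.8 CPM (median 58) in females and 26.3 to 42.4 CPM (median 30.2) in males (log2 fold change 0.88 ± 0.14, adjusted p = 2.99e-05). No mouse of either sex lay in the range of the other for these 2 genes.

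Slow troponin I (log2 fold change 0.73 ± 0.21, adjusted p = 0.0116), Tnnc1, Tpm3 and the slow calcium pump Atp2a2 were the other calls, between 0.53 for Atp2a2 and 0.79 for Tnnc1. The slow myosin heavy chain itself, Myh7, was 57.8 to 92.2 CPM (median 73.2) in females and 35 to 71.5 CPM (median 43.2) in males, and was just over the threshold (log2 fold change 0.60 ± 0.22, adjusted p = 0.0516). Myh7 passed without FC33, without MC31 and in 8 of the other settings, among them edgeR's quasi-likelihood test (adjusted p = 0.0473) and a limma fit of the 14 control mice alone (adjusted p = 0.00145). Myl3, Myl6b, Myoz2 and Myh7b did not pass either, the last with fewer than 2 CPM in every mouse. The summed slow-fiber level was 1506 to 2080.4 CPM (median 1789) in females and 1037 to 1445 CPM (median 1096) in males. Leaving out the 4 mice with liver markers, 2 of the 12 were called higher, with Tnnt1 at 0.87 (adjusted p = 0.0537) and Tnni1 at 0.65 (adjusted p = 0.104), and with adipocyte markers as a covariate 1 was. In running controls 8 of the 12 were higher in females (median 0.63), Myh7 among them at 0.79 (adjusted p = 0.00221), and none had a sex difference that differed between wheel states.

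Fast-fiber contractile genes leaned the other way by smaller amounts. Of 16 tested, 8 were lower in females and 1, the fast light chain Mylpf (0.22, adjusted p = 0.0357), was higher, with a median of -0.23. Type IIB myosin heavy chain, Myh4, was 18957, 24986, 21679, 28833, 20734, 22221 and 19615 CPM in females and 31592, 32717, 31012, 27302, 34789, 31738 and 31392 CPM in males (log2 fold change -0.50 ± 0.12, adjusted p = 0.00281), and FC18 was the female that reached the male range. The other calls were fast troponin I (log2 fold change -0.37 ± 0.07, adjusted p = 0.000335), Tnnt3, Tnnc2, Mybpc2, the fast calcium pump Atp2a1, Actn3 and Myoz1, from -0.42 for Mybpc2 to -0.23 for Tnnc2. Heavy chains IIX and IIA did not pass the test (Myh1 -0.23, adjusted p = 0.135; Myh2 0.16, adjusted p = 0.48), nor did parvalbumin, Pvalb (0.13, adjusted p = 0.243).

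For 3 of the fast-fiber genes the sex difference differed between wheel states. Myh4 was -0.0017 (adjusted p = 0.991) in running controls, a difference between wheel states (locked minus running) of -0.50 (adjusted p = 0.0146). Atp2a1 and Actn3, lower in locked females, were 0.30 (adjusted p = 0.0594) and 0.35 (adjusted p = 0.0328) in running females, with differences between wheel states of -0.63 (adjusted p = 0.0019) and -0.60 (adjusted p = 0.00343). Of the 8 lower calls in locked mice, the list had 7 without the 4 mice with liver markers and 0 with the adipocyte covariate. Tnni2, in contrast, was -0.27 (adjusted p = 0.0193) with running, and its difference between wheel states was -0.10 (adjusted p = 0.63).

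**Figure D2:**
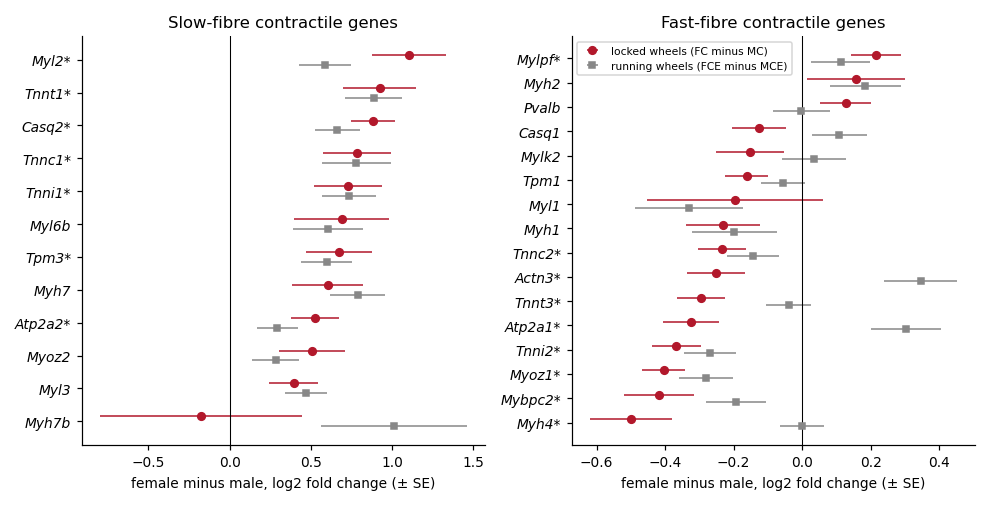
Female minus male log2 fold changes (x axis, ± SE) of slow-fiber (left) and fast-fiber (right) contractile genes in locked controls (circles) and running controls (squares), 7 mice of each sex per wheel state, with an asterisk where locked controls passed the test. Slow-fiber genes lie right of 0 in both wheel states except Myh7b in locked mice, and Actn3 and Atp2a1 lie on opposite sides of 0 in the 2 wheel states.

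Of the genes listed for developing and regenerating fibers, 4 of 8 tested were higher in females and none lower (median 0.78). The listed developmental myosins Myh3, Myh8 and Myl4 were not among the calls. Actc1, the cardiac actin that embryonic skeletal muscle also makes, was 374, 415, 355, 403, 529, 299 and 341 CPM in females and 34.2, 60.5, 74.1, 43.7, 41.1, 88.5 and 56.3 CPM in males, 7.11-fold higher in females (log2 fold change 2.83 ± 0.29, adjusted p = 5.11e-08). The imprinted noncoding RNA H19 was 552 to 1141 CPM (median 714) in females and 198 to 288 CPM (median 209) in males (log2 fold change 1.79 ± 0.21, adjusted p = 4.44e-07), and its neighbor Igf2, a fetal growth factor, was 24.9 to 50.8 CPM (median 26.4) in females and 14.1 to 22.5 CPM (median 19.5) in males (log2 fold change 0.61 ± 0.14, adjusted p = 0.00234). Ncam1, a cell adhesion molecule that denervated fibers display, was the fourth call (log2 fold change 0.96 ± 0.29, adjusted p = 0.0168). In running controls Actc1 was 2.18 (adjusted p = 9.82e-10), H19 1.59 (adjusted p = 2.45e-06) and Igf2 0.50 (adjusted p = 0.0018). In the 10 mice with few liver transcripts 2 of the 8 were called higher, with Igf2 at 0.37 (adjusted p = 0.0617).

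Regulators of fiber type, not all of them transcription factors, were lower in females for 11 of 20 tested, with 2 higher. The calls were not sorted by the fiber type that each gene favors. Eya1 was 16.6 to 22.6 CPM (median 20.5) in females and 27.9 to 32 CPM (median 30.2) in males (log2 fold change -0.58 ± 0.10, adjusted p = 0.000107). Tbx15 was 60.6 to 81.8 CPM (median 70.3) in females and 90.5 to 131 CPM (median 105) in males (log2 fold change -0.56 ± 0.10, adjusted p = 0.000192). Tead1, a factor of muscle promoters, was 126 to 201 CPM (median 141) in females and 215 to 321 CPM (median 237) in males (log2 fold change -0.69 ± 0.11, adjusted p = 3.17e-05). None of these 3 overlapped between the sexes. Foxj3 (-0.71), Hdac4 (-0.56), Mef2a (-0.43), Sox6 (-0.40), Mef2d, Mef2c, Hdac5 and Nfatc1 were the other lower calls. The higher calls were Vgll2 (log2 fold change 0.45 ± 0.14, adjusted p = 0.0174) and Prox1 (log2 fold change 0.56 ± 0.19, adjusted p = 0.0313). The call for Prox1 was lost when any of FC15, FC18, MC16, MC17 or MC31 was left out, with adjusted p from 0.0505 to 0.0779. Without the 4 mice with liver markers, lower calls fell to 6 and higher calls to 0, with Prox1 at 0.60 (adjusted p = 0.0748). With liver markers as a covariate Prox1 was 0.33 (adjusted p = 0.239). With the adipocyte covariate 2 regulators were called lower and 0 higher. With running, Eya1 was -0.39 (adjusted p = 0.0176), Tbx15 -0.49 (adjusted p = 0.000198) and Tead1 -0.26 (adjusted p = 0.0143), and Tead1 was among 4 regulators whose sex difference differed between wheel states (-0.44, adjusted p = 0.0264).

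Z-disc, titin and costamere genes, which anchor the filaments and tie them to the membrane, were lower in females for 11 of 26 tested and higher for none (median -0.42). The giant spring protein titin, Ttn, was 9737, 15512, 10275, 21957, 10768, 15055 and 8659 CPM in females and 21367, 22187, 24381, 21847, 29107, 24386 and 26822 CPM in males (log2 fold change -0.95 ± 0.20, adjusted p = 0.000774), where FC18 was the female that reached the male range. Tcap (-0.61), Des (-0.61), Neb (-0.52), Cmya5 (-0.61), Fhl3 (-0.99), Xirp2, Myom1, Myom2 and Sgca were also lower. With the mice rich in liver markers omitted, 8 genes were called lower, and with the adipocyte covariate 1.

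In excitation and contraction coupling 5 of 21 genes were lower in females and none higher. The calcium release channel Ryr1 was 553 to 947 CPM (median 638) in females and 1012 to 1456 CPM (median 1123) in males, without overlap (log2 fold change -0.80 ± 0.12, adjusted p = 2.26e-05), and the calcium channel subunit Cacng1 was -0.60 (adjusted p = 1.92e-05). Srl, Jph1 and Jsrp1 were the others. In running controls Ttn was 0.13 (adjusted p = 0.526) and Ryr1 0.15 (adjusted p = 0.43), and both differed between wheel states, by -1.08 (adjusted p = 0.00215) and -0.95 (adjusted p = 0.000258).

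Sex differences also varied with transcript length. Over 11946 protein-coding autosomal genes sorted by their longest annotated transcript, the median log2 fold change went from 0.11 in the shortest quintile (243 to 1824 nt) to -0.06 in the longest (5289 to 123179 nt). The share called higher in females went from 16.2% to 8.12%, and the share called lower from 4.72% to 17.2%. In running controls the medians of these quintiles were -0.03 and 0.02, and in locked mice lacking HuR they were 0.09 and -0.08. Of the 26 Z-disc genes 10 were in the longest quintile, and 6 of those 10 were called lower. Genes that the annotation marks as TEC, whose transcripts await experimental support, had a median of -0.63, with 45 of 318 lower in females and none higher. The part of length in the results for long or short genes was not tested.

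**Figure D3:**
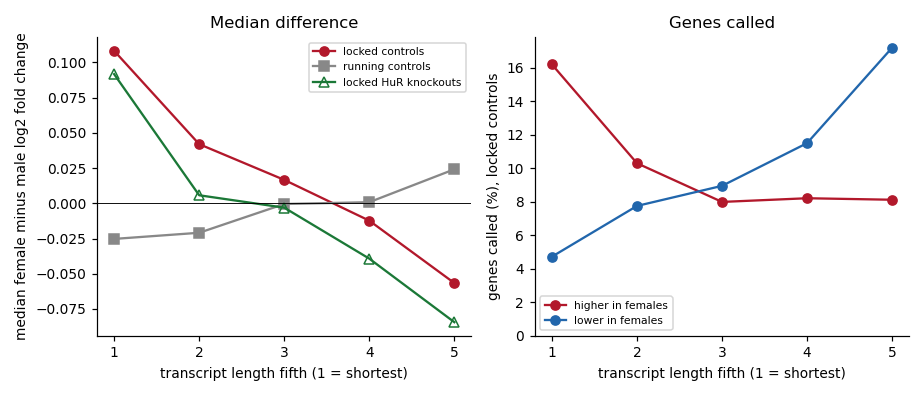
Left, median female minus male log2 fold change (y axis) by quintile of transcript length (x axis, 1 shortest) in locked controls, running controls and locked HuR knockouts; right, percentage of genes called in locked controls, by direction. The locked medians fall from 0.11 to -0.06 across the quintiles, while those of running controls stay between -0.03 and 0.02.

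At the neuromuscular junction, the receptor kinase Musk, which gathers acetylcholine receptors under the nerve ending, was 5.35, 4.99, 5.71, 8.83, 5.16, 10.2 and 8.59 CPM in females and 26.4, 22.7, 24.6, 25.2, 31.4, 16.5 and 20.2 CPM in males, 3.50-fold lower in females and without overlap (log2 fold change -1.81 ± 0.21, adjusted p = 4.44e-07). The receptor subunit Chrnb1 (log2 fold change -0.52 ± 0.13, adjusted p = 0.00439), the collagen tail Colq (-0.70) and Rapsn (-0.27) were also lower. Ncam1, Gadd45a (log2 fold change 0.81 ± 0.19, adjusted p = 0.00239) and Myog (log2 fold change 0.82 ± 0.21, adjusted p = 0.0055), from the same list of junction and denervation genes, were higher in females. These 4 lower and 3 higher calls were among 20 genes tested, where 9.99% of all autosomal genes were called lower and 9.61% higher. The list median was 0.14, and 12 of the 20 had a positive fold change. Without the 4 mice with liver markers 1 gene was lower and 1 higher, with Chrnb1 at -0.52 (adjusted p = 0.0511). Musk was -0.95 (adjusted p = 2.02e-05) with running, though the difference between wheel states was -0.85 (adjusted p = 0.0295).

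Of 18 satellite cell and myogenic genes 4 were higher and 2 lower, where 9.61% and 9.99% of all autosomal genes were. Pax7, which defines satellite cells, did not pass the test (log2 fold change 0.34 ± 0.23, adjusted p = 0.316). The higher calls were Myog, Megf10 (1.43), the adhesion molecule Vcam1 (0.98) and Chodl (log2 fold change 0.87 ± 0.15, adjusted p = 7.17e-05), while Myod1 (-0.54) and the integrin Itga7 (-0.51) were lower. Among the 10 mice with low liver markers 2 were higher and 0 lower.

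Glycogen metabolism was lower in females for 10 of 23 genes and higher for 3. Muscle phosphorylase Pygm, which frees glucose from glycogen, was 4341 to 5326 CPM (median 4676) in females and 5421 to 8489 CPM (median 6820.04) in males, without overlap (log2 fold change -0.51 ± 0.09, adjusted p = 0.000109). The acid glucosidase Gaa (-0.51), the kinase Gsk3b (-0.55), Phkb, Gyg, Gsk3a, Ppp1r3c, Ppp1r3e and Phkg1 were lower as well. Pygl, the phosphorylase named for liver, was higher at 3.92 to 16.7 CPM (median 8.0) in females and 1.84 to 4.71 CPM (median 2.28) in males (log2 fold change 1.52 ± 0.32, adjusted p = 0.00101), as were Ppp1r3d and Stbd1. Leaving out the 4 mice with liver markers, 8 genes were lower and 3 higher, and with the adipocyte covariate 1 and 0.

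In glycolysis 6 of 25 genes were lower and 2 higher, where 9.99% and 9.61% of all autosomal genes were. The list median was 0.03, and 14 of the 25 had a positive fold change. Hexokinase Hk2, which traps glucose in the fiber, was 189, 191, 204, 228, 201, 171 and 193 CPM in females and 288, 288, 315, 329, 393, 263 and 274 CPM in males (log2 fold change -0.63 ± 0.07, adjusted p = 3.39e-07), and phosphofructokinase Pfkm was 879 to 1102 CPM (median 979) in females and 1197 to 1516 CPM (median 1343) in males (log2 fold change -0.45 ± 0.07, adjusted p = 5e-05). The sexes did not overlap for either. The lactate exporter Slc16a3 (-0.71), Gpi1 (-0.49), Pfkfb3 and Pfkfb4 were the other lower calls. Ldhb and Fbp2 were higher (0.37 and 0.47), though neither passed without MC16 or without MC18. In the 10 mice with few liver transcripts 5 genes were lower and 0 higher. Hk2 was -0.27 (adjusted p = 0.00212) with running, a difference between wheel states of -0.37 (adjusted p = 0.00726).

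Insulin signaling and glucose uptake held 7 lower and 1 higher of 27. The glucose transporter Slc2a3 was 0.855 to 2.58 CPM (median 1.41) in females and 5.0 to 8.58 CPM (median 6.98) in males, 4.80-fold lower in females (log2 fold change -2.26 ± 0.30, adjusted p = 2.93e-06), and the insulin-responsive transporter Slc2a4 did not pass (log2 fold change -0.10 ± 0.09, adjusted p = 0.484). Grb10, an imprinted adaptor that restrains insulin and growth factor receptors, was higher, 27.2 to 37.5 CPM (median 33.6) in females and 16.1 to 24 CPM (median 19.7) in males (log2 fold change 0.68 ± 0.11, adjusted p = 4.3e-05). Insr (-0.38), Rab10 (-0.45), Inppl1, Rac1 and Ptpn1 were lower. With the mice rich in liver markers omitted, 4 were lower and 1 higher.

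Among lipid genes the receptor Vldlr, which takes up triglyceride-rich particles, was 135, 166, 135, 191, 151, 145 and 131 CPM in females and 393, 357, 342, 417, 619, 374 and 342 CPM in males (2.66-fold lower; log2 fold change -1.41 ± 0.13, adjusted p = 5.71e-09). The mitochondrial acetyl-CoA carboxylase Acacb, which restrains fatty acid oxidation, was 48.1 to 77.2 CPM (median 62.1) in females and 90.9 to 132 CPM (median 102) in males (log2 fold change -0.77 ± 0.11, adjusted p = 1e-05), and the phosphatase Lpin1 was 162 to 251 CPM (median 197) in females and 263 to 340.5 CPM (median 296) in males (log2 fold change -0.62 ± 0.10, adjusted p = 4.37e-05). Females lay under males without overlap in all 3. Cd36, which carries fatty acids across the membrane, did not differ beyond the spread (log2 fold change 0.06 ± 0.10, adjusted p = 0.718). Fatty acid uptake and oxidation had 6 lower and 1 higher of 35, and 4 lower and 0 higher without the 4 mice with liver markers. Lipid droplet and lipolysis genes had 4 lower and 5 higher of 20 (median 0.08), and 4 lower and 0 higher without those mice. Of all autosomal genes tested, 9.99% were called lower and 9.61% higher.

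Nuclear-encoded respiratory chain subunits shifted by small amounts, 15 of 71 higher and 3 lower with a median of 0.10, and 26 higher and 7 lower when only the 14 control mice were fitted. In running controls none was higher and 10 were lower, with a median of -0.09, and the sex difference of 21 differed between wheel states. Cox6c, a subunit of cytochrome oxidase, was 1043 to 1290.2 CPM (median 1137) in females and 845 to 948 CPM (median 879) in males (log2 fold change 0.38 ± 0.07, adjusted p = 0.00019), and Cox6a1 was higher as well (log2 fold change 0.55 ± 0.09, adjusted p = 7.58e-05). The lower calls, Uqcrc1, Ndufv1 and Atp5d, lay between -0.33 and -0.26. Of the 71 genes 61 were in the shortest length quintile, and 13 of the 15 higher calls came from it. Among the 10 mice with low liver markers 3 were higher and 0 lower. Of 26 mitochondrial regulators and dynamics genes 1 was higher, Esrrg (log2 fold change 0.68 ± 0.14, adjusted p = 0.00063), and 4 were lower, where 9.61% and 9.99% of all autosomal genes were. Ppargc1a, known like Esrrg to raise mitochondrial genes, was lower (log2 fold change -0.33 ± 0.10, adjusted p = 0.0214), with Mfn2 (-0.42), Prkaa2 (-0.46) and Mfn1 (-0.24), and the call for Ppargc1a ended without FC20, without MC31 and in the 10 mice with low liver markers, with adjusted p from 0.0520 to 0.0648.

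Cytosolic ribosomal protein genes were higher in females in 54 of 77 and lower in none, with a median of 0.34 and 74 of 77 positive. Rpl31 was 219 to 280.1 CPM (median 241) in females and 168 to 186 CPM (median 173) in males (log2 fold change 0.50 ± 0.06, adjusted p = 2.23e-06) and Rpl3 was 46 to 59.6 CPM (median 53.1) in females and 29.3 to 39.97 CPM (median 34.9) in males (log2 fold change 0.59 ± 0.11, adjusted p = 0.000164), each without overlap, and the summed level was 14510.2 to 16806 CPM (median 15832) in females and 11786 to 13047 CPM (median 12547) in males. In running controls the median was -0.03, with 5 higher and 6 lower, and for 40 of the 77 the sex difference was larger in locked mice by the test of that difference. In locked mice lacking HuR the median was 0.38. Of the 76 with a length, 66 were in the shortest quintile, and without the 4 mice with liver markers 31 were called higher.

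Growth signals also differed by sex. Socs2, a feedback inhibitor that growth hormone induces, was 112, 65, 95.8, 94.4, 153, 131 and 68.7 CPM in females and 19.8, 31.9, 50.8, 43.8, 50.2, 32.9 and 33.9 CPM in males (log2 fold change 1.45 ± 0.25, adjusted p = 8.82e-05). Igf1, the growth factor that carries much of the action of growth hormone, was 61.1 to 99.4 CPM (median 70.7) in females and 32.4 to 62.1 CPM (median 48.2) in males (log2 fold change 0.73 ± 0.16, adjusted p = 0.00171). The binding protein Igfbp6 was 25.2 to 41.2 CPM (median 32.3) in females and 10.6 to 18.5 CPM (median 13.7) in males (log2 fold change 1.09 ± 0.16, adjusted p = 1e-05), while the kinase Jak2 (-0.76), Stat5b (-0.54) and Bcl6 (-0.69) were lower, for 7 higher and 3 lower of 21, and 4 and 3 without the 4 mice with liver markers, where Igf1 was 0.51 (adjusted p = 0.0931). Socs2 was 1.14 (adjusted p = 0.00114) with running. Igf1 was -0.36 (adjusted p = 0.0267) there, the opposite direction, and its sex difference differed between wheel states by 1.09 (adjusted p = 0.000408). In locked mice lacking HuR, Igf1 was 0.31 (adjusted p = 0.193).

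Genes that control muscle mass were lower in 10 and higher in 5 of 42. Myostatin, Mstn, the secreted brake on muscle growth, was 31.3, 37.7, 38.6, 37.8, 40.5, 45.3 and 38.8 CPM in females and 78.4, 76.2, 71.3, 59, 90.3, 65.9 and 59.7 CPM in males, 1.85-fold lower in females (log2 fold change -0.89 ± 0.12, adjusted p = 7.12e-06), and the related Gdf11 was 3.87 to 7.13 CPM (median 4.96) in females and 7.14 to 11.7 CPM (median 10.3) in males (log2 fold change -0.83 ± 0.23, adjusted p = 0.0103). The ubiquitin ligase Fbxo32, which marks fiber proteins for breakdown, was 144 to 439.9 CPM (median 235) in females and 303 to 1127 CPM (median 382) in males (log2 fold change -0.82 ± 0.23, adjusted p = 0.0118), where MC20 held the highest value. Trim54, another ligase of the sarcomere, was 151 to 170.1 CPM (median 166) in females and 245 to 358 CPM (median 281) in males (log2 fold change -0.81 ± 0.09, adjusted p = 1.75e-07). Sesn1, a stress-induced inhibitor of mTOR signaling, was higher, 17.7 to 21.8 CPM (median 18.3) in females and 6.06 to 13.1 CPM (median 10.4) in males (log2 fold change 0.94 ± 0.13, adjusted p = 6.82e-06). Leaving out the 4 mice with liver markers, 7 were lower and 4 higher, and Fbxo32 was -0.83 (adjusted p = 0.0729). With running, Mstn was -0.30 (adjusted p = 0.178), a difference between wheel states of -0.59 (adjusted p = 0.0409), and Sesn1 was 1.0 (adjusted p = 1.35e-07).

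Of the steroid and nuclear receptor genes 3 of 25 were higher and 5 lower in females, where 9.61% and 9.99% of all autosomal genes were. The estrogen receptor Esr1 did not pass the test (log2 fold change 0.11 ± 0.12, adjusted p = 0.591). Nr4a3, an early response receptor, was 3.86 to 9.78 CPM (median 5.88) in females and 1.45 to 2.92 CPM (median 2.15) in males (log2 fold change 1.49 ± 0.25, adjusted p = 5.53e-05), and Fkbp5, a chaperone that glucocorticoids and androgens induce, was 9.21 to 21.4 CPM (median 16) in females and 15.3 to 31.3 CPM (median 20.9) in males (log2 fold change -0.71 ± 0.20, adjusted p = 0.0126). Deiodinase Dio2, which activates thyroid hormone, was 6.77 to 12.3 CPM (median 9.42) in females and 1.72 to 5.62 CPM (median 3.68) in males (log2 fold change 1.45 ± 0.21, adjusted p = 1.42e-05), with 0.74 (adjusted p = 0.0176) in running controls.

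Clock genes were lower in females for 9 of 21, and higher for none (median -0.32). Usp2 was 133 to 224 CPM (median 182) in females and 231 to 333 CPM (median 327) in males (log2 fold change -0.75 ± 0.12, adjusted p = 2.29e-05) and Bhlhe41, a repressor of the clock, was 21.1 to 41.6 CPM (median 31.8) in females and 53.1 to 78.5 CPM (median 57.7) in males (log2 fold change -0.97 ± 0.20, adjusted p = 0.000676), both without overlap. Per2 (log2 fold change -1.17 ± 0.33, adjusted p = 0.0121), Ciart (-1.01), Hlf (-0.92), Dbp (-0.72), Tef, Cry2 and Rora were the others. The time of day at collection is not given in the sources used here, and without the 4 mice with liver markers 5 were called lower, with 0 under the adipocyte covariate. In running controls Bhlhe41 was the only clock gene called (-1.07, adjusted p = 0.00188).

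Secreted factors of muscle were higher in 5 of 22 and lower in 2, where 9.61% and 9.99% of all autosomal genes were. Osteocrin, Ostn, was 78.8, 54.3, 84.9, 82.2, 113, 87.3 and 99.6 CPM in females and 25.2, 28.6, 26.9, 22.4, 12, 17.9 and 24.5 CPM in males (log2 fold change 1.93 ± 0.23, adjusted p = 7.17e-07), without overlap, and interleukin Il15 was 4.91 to 13.1 CPM (median 9.603) in females and 2.27 to 5.26 CPM (median 3.65) in males (log2 fold change 1.33 ± 0.22, adjusted p = 5e-05). Ostn was 1.32 (adjusted p = 1.15e-05) and Il15 0.61 (adjusted p = 0.00143) in running controls. Proteasome subunits were called lower in 7 of 36 and higher in 1, led by Psmd8, 126 to 187 CPM (median 149) in females and 250.01 to 431 CPM (median 354) in males (log2 fold change -1.13 ± 0.13, adjusted p = 4.84e-07), which was -1.04 (adjusted p = 1.23e-08) with running. Of 27 genes of oxidative stress and metal handling 4 were higher and 3 lower, where 9.61% and 9.99% of all autosomal genes were. Their median was 0.07, and Sod3, the extracellular superoxide dismutase, was 1.03 (adjusted p = 0.0002).

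**Figure D4:**
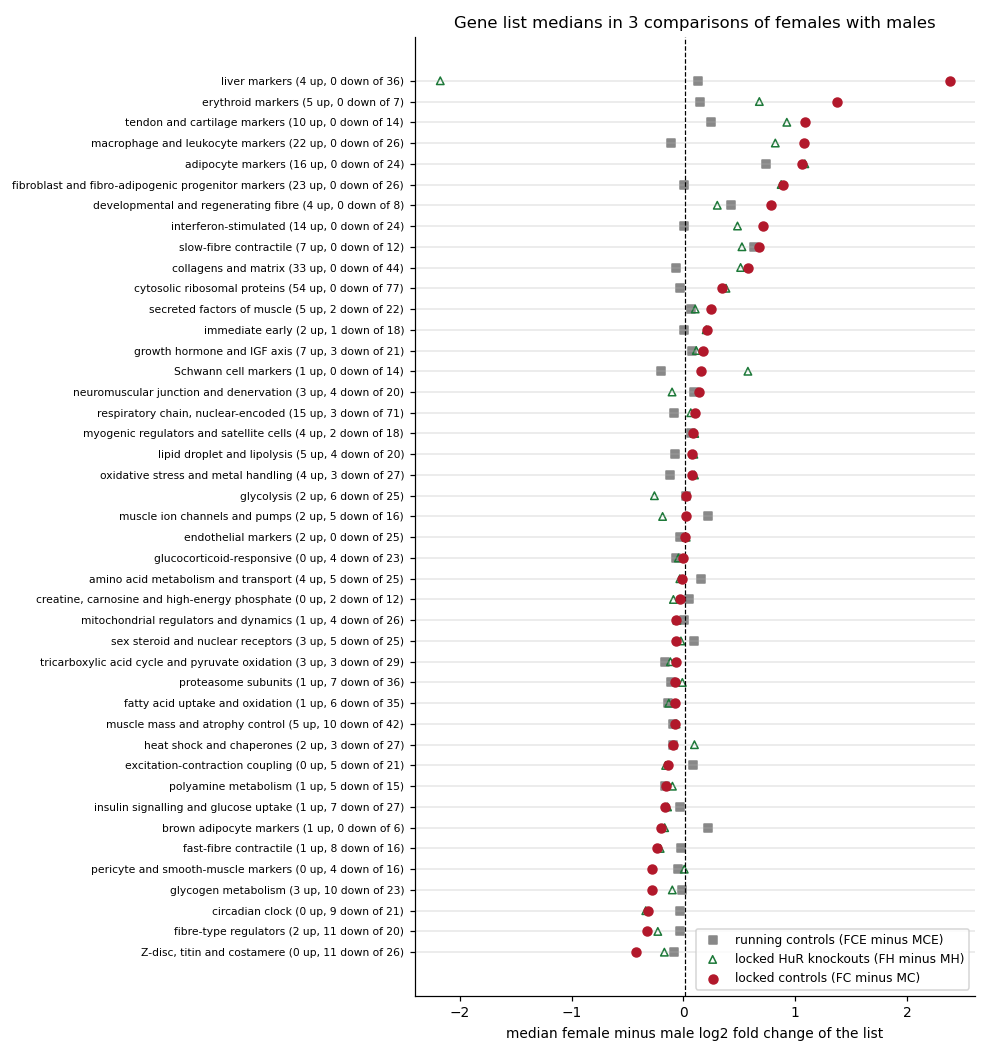
Median female minus male log2 fold change (x axis) of each gene list with at least 5 genes tested, in locked controls (circles), running controls (squares) and locked HuR knockouts (triangles); the dashed line is the median of all autosomal genes in locked controls, and the labels give the calls in locked controls. Slow-fiber and adipocyte lists are shifted right in all 3 comparisons, while ribosomal, collagen, fibroblast and macrophage lists are shifted right in locked mice of both genotypes and lie between -0.11 and 0.01 in running controls.

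Markers of cells other than fibers moved too, and in bulk tissue more cells of a type and more RNA per cell cannot be told apart. Adipocyte markers were higher in females in 16 of 24 and lower in none (median 1.06). Adiponectin, Adipoq, was 54.8, 43.1, 56.1, 24.4, 50.9, 35.8 and 46.5 CPM in females and 13.6, 9.91, 5.69, 7.69, 6.50, 16.4 and 28.8 CPM in males (log2 fold change 1.91 ± 0.38, adjusted p = 0.000486), where MC31 lay above FC18 and no other pair overlapped. Resistin, Retn, was 14.8 to 27.7 CPM (median 21.6) in females and 1.31 to 11.5 CPM (median 3.68) in males (log2 fold change 2.58 ± 0.40, adjusted p = 2.68e-05) and adipsin, Cfd, 101 to 249 CPM (median 158) in females and 19.1 to 88.4 CPM (median 33.3) in males (log2 fold change 2.26 ± 0.36, adjusted p = 4e-05). Plin1, Cidec, Fasn, Scd1 and Cebpa lay between 1.33 and 1.62. The summed markers were 4328 to 5097 CPM (median 4471) in females and 2557 to 2978 CPM (median 2648) in males, but Car3, a carbonic anhydrase that muscle fibers also make, was 72% of that sum, and without it the ranges were 943 to 1503 and 604 to 1059 CPM. In running controls 8 of the 24 were higher in females (median 0.74), Retn at 1.29 (adjusted p = 0.000412) and Car3 at 0.78 (adjusted p = 0.00245). In the 10 mice with few liver transcripts 10 were called higher.

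Fibroblast and fibro-adipogenic progenitor markers were higher in 23 of 26 and lower in none (median 0.89), with 17 called without overlap, against 3.19% of all autosomal genes tested. Pdgfra, which defines the progenitors, was 19.2 to 40.1 CPM (median 32.3) in females and 15.8 to 23.8 CPM (median 21.1) in males (log2 fold change 0.57 ± 0.14, adjusted p = 0.00394), and the proteoglycan lumican, Lum, was 34.3 to 62.5 CPM (median 44.9) in females and 12.9 to 25.8 CPM (median 18.2) in males (log2 fold change 1.24 ± 0.19, adjusted p = 1.89e-05). Collagen and matrix genes were higher in 33 of 44, among them Col3a1 (log2 fold change 1.10 ± 0.16, adjusted p = 1.58e-05), Col14a1 (log2 fold change 1.80 ± 0.27, adjusted p = 1.5e-05) and Fn1 (1.17). Col1a1, a chain of the main collagen of tendon and bone, was 302 to 872 CPM (median 373) in females and 100.2 to 246 CPM (median 184) in males (log2 fold change 1.38 ± 0.23, adjusted p = 4.91e-05). Tendon and cartilage markers were higher in 10 of 14, Fmod at 1.49 and Tnc at 1.54. The summed fibroblast markers were 2968 to 4155 CPM (median 3676) in females and 1739 to 2568 CPM (median 2067) in males with wheels locked. With wheels turning they were 2109 to 2938 CPM in running females and 1939.6 to 3372 CPM in running males, and for 18 fibroblast, 23 collagen and 6 tendon genes the sex difference was larger in locked mice by the test of that difference. With the mice rich in liver markers omitted, 18 fibroblast, 21 collagen and 6 tendon genes were called higher, and with the adipocyte covariate 1, 3 and 0.

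Macrophage and leukocyte markers were higher in 22 of 26 and lower in none (median 1.08). The colony-stimulating factor receptor Csf1r was 15.5 to 35.7 CPM (median 19.9) in females and 8.22 to 17.4 CPM (median 14.4) in males (log2 fold change 0.63 ± 0.19, adjusted p = 0.0195), and its call was lost when FC12, MC16 or MC20 was left out, with adjusted p from 0.0548 to 0.0693. Complement C1qa was 16.1 to 33.3 CPM (median 22.6) in females and 5.51 to 12.8 CPM (median 8.97) in males (log2 fold change 1.32 ± 0.21, adjusted p = 3.55e-05), and the antigen-presenting gene H2-Aa was 43.5 to 125 CPM (median 55.9) in females and 16.8 to 29.7 CPM (median 25.5) in males (log2 fold change 1.30 ± 0.19, adjusted p = 9.11e-06). The sexes did not overlap for the last pair. Interferon-stimulated genes were higher in 14 of 24, with B2m, which is part of the class I molecule, at 325 to 589.5 CPM (median 409.9) in females and 217 to 319.7 CPM (median 250.5) in males (log2 fold change 0.74 ± 0.10, adjusted p = 3.53e-06) and Irf9 at 0.87. Summed macrophage markers were 331 to 706 CPM (median 409) in females and 143 to 241 CPM (median 204) in males with locked wheels and 196 to 401 CPM in running females and 151 to 344 CPM in running males, and none of the 26 was called in running controls. Among the 10 mice with low liver markers 12 macrophage and 9 interferon genes were called higher, and with the adipocyte covariate 1 and 3.

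Red-cell transcripts were higher in females for 5 of 7. Hbb-bs was 3045, 3759, 2669, 1555, 2336, 1162 and 1073 CPM in females and 445, 688, 651, 1069, 642, 815 and 728 CPM in males (log2 fold change 1.54 ± 0.24, adjusted p = 3.55e-05), and Hba-a1 was 281 to 1127 CPM (median 604) in females and 115 to 362 CPM (median 199.9) in males (log2 fold change 1.45 ± 0.27, adjusted p = 0.000235). Counts of the near-identical globin copies Hba-a1 and Hba-a2, and Hbb-bs and Hbb-bt, may be split between them. The list had 4 calls without the 4 mice with liver markers. Hba-a1 was 0.08 (adjusted p = 0.868) with running, and its sex difference differed between wheel states by 1.37 (adjusted p = 0.0108). Of endothelial markers 2 of 25 were called higher (Lyve1 and Prox1, both genes of lymphatic vessels), near the 9.61% of all autosomal genes. Pecam1 was 41.9 to 62.7 CPM (median 58.6) in females and 48.7 to 60.8 CPM (median 56.8) in males (log2 fold change 0.00 ± 0.09, adjusted p = 0.99). Pericyte and smooth-muscle markers were lower in 4 of 16, Acta2 (log2 fold change -0.47 ± 0.13, adjusted p = 0.00974) among them. Acta2 was -0.48 (adjusted p = 0.0691) without the 4 mice with liver markers. Of Schwann cell markers 1 of 14 was called higher, near the 9.61% of all autosomal genes, and it was Ngfr (log2 fold change 1.94 ± 0.53, adjusted p = 0.00853).

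Liver markers were high in single mice of both sexes. Albumin, Alb, was 279, 1695, 262, 40.7, 59.1, 53.5 and 71.5 CPM in females and 1.62, 18.3, 2.85, 261, 42.6, 6.53 and 18.5 CPM in males, and its difference (log2 fold change 3.16 ± 1.05, adjusted p = 0.0318) was lost when any of FC12, FC15, FC16, MC16, MC17, MC18, MC29 or MC31 was left out, with adjusted p from 0.0503 to 0.0686. The 36 liver genes tested had a median of 2.38. Trf, Cyp2e1 and Apoe were the other 3 calls, and of the 4 only Apoe passed in the 10 mice with low liver markers. In locked mice lacking HuR the median was -2.17. Of 12 keratinocyte markers the 8 in the table summed to at most 26.3 CPM, with 2 tested and 1, Trp63, lower in females (-0.81, adjusted p = 0.00515), and the 2 pancreas markers in the table summed to at most 0.433 CPM.

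**Figure D5:**
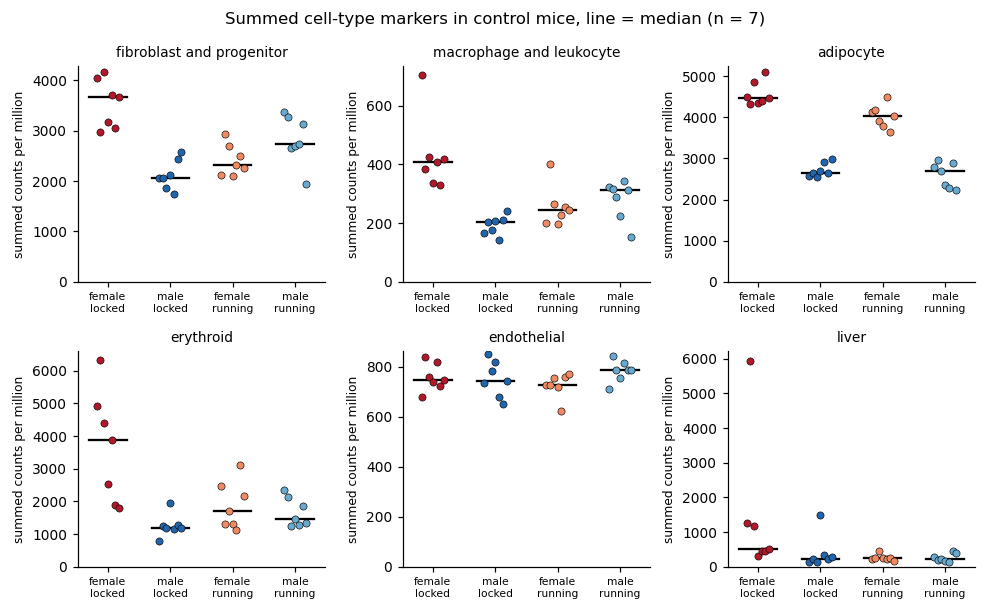
Summed levels of 6 lists of cell-type markers in CPM (y axes, linear, from 0) for locked and running control mice of each sex, with points for mice and a line for the median (n = 7 per group). Locked females lie above locked males without overlap for fibroblast, macrophage and adipocyte markers, endothelial markers overlap, and FC15 holds the highest liver sum at 5925 CPM.

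The largest rises and falls among protein-coding genes without overlap, chosen by size, include genes outside these pathways. Slc15a5, a member of the peptide transporter family, was 0 to 0.790 CPM (median 0.0712) in females and 5.15 to 11.1 CPM (median 8.05) in males (log2 fold change -5.95 ± 0.91, adjusted p = 2.07e-05). Cacna2d4, an auxiliary calcium channel subunit, was 0 to 0.285 CPM (median 0) in females and 2.58 to 3.89 CPM (median 3.18) in males (log2 fold change -5.53 ± 0.73, adjusted p = 3.04e-06), and the zinc transporter Slc30a2 was 0.110 to 0.753 CPM (median 0.499) in females and 5.67 to 13.4 CPM (median 7.58) in males (log2 fold change -4.19 ± 0.66, adjusted p = 3.17e-05). For such genes the females were at or near 0, so the fold changes depend on how small counts are treated. Odf3l2 was 1.23 to 3.07 CPM (median 2.92) in females and 17.4 to 42.4 CPM (median 29.8) in males (log2 fold change -3.81 ± 0.38, adjusted p = 3.05e-08) and Actr3b, a relative of an actin-related protein, 0.735 to 2.63 CPM (median 1.87) in females and 17.9 to 23.2 CPM (median 21.2) in males (log2 fold change -3.71 ± 0.44, adjusted p = 4.77e-07). With 1700001O22Rik, Cd27, C7, Tfcp2l1, Kcnf1, Amd1 and Amd2 these made up the 12 largest falls, from -2.88 for Kcnf1 to -5.95 for Slc15a5. In running controls Slc15a5 was -5.49 (adjusted p = 2.57e-05), Odf3l2 -2.81 (adjusted p = 2.86e-07) and Actr3b -3.07 (adjusted p = 5.51e-07).

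The 12 largest rises were smaller, from 2.20 to 3.45. The matrix protease Mmp3 was 2.64 to 7.42 CPM (median 3.42) in females and 0.152 to 0.757 CPM (median 0.548) in males (log2 fold change 2.98 ± 0.54, adjusted p = 0.00016). The growth regulator Mycn was 1.41 to 4.51 CPM (median 2.02) in females and 0.116 to 1.06 CPM (median 0.329) in males (log2 fold change 2.91 ± 0.71, adjusted p = 0.00352). The others were Gm765, the beta-adrenergic receptor of fat Adrb3 (log2 fold change 2.88 ± 0.56, adjusted p = 0.000395), Actc1, the Wnt antagonist Sfrp4 (log2 fold change 2.63 ± 0.50, adjusted p = 0.000314), Retn, Scg3, Cd1d1, Cdo1, Cfd and Chad. Adrb3 was 2.53 (adjusted p = 0.00152) and Mycn 0.67 (adjusted p = 0.504) in running controls.

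Across all autosomal genes, the sex differences called in locked and in running controls, which were different mice fitted separately, overlapped in part. Of the 1251 genes higher in locked females, 137 (11%) were also called higher in running females, and of the 1300 lower ones, 314 (24.2%) were also lower. Conversely, 451 of 1173 running calls (38.4%) were called in the same direction in locked mice, and 7226 of 12737 genes tested in both (56.7%) had the same sign. The smallest adjusted p values of the test between wheel states belonged to Gm42432 (-2.14, adjusted p = 1.35e-08), Gm43185 (-2.32, adjusted p = 7.27e-08), Phkg1 (-0.73, adjusted p = 1.77e-06), Gm43063 (-2.39, adjusted p = 1.77e-06) and Luc7l2 (-0.78, adjusted p = 3.12e-06). Phkg1, the catalytic subunit of the kinase that activates muscle phosphorylase, was -0.28 in locked and 0.45 (adjusted p = 2.02e-05) in running controls, and Luc7l2, a splicing factor, was -0.37 and 0.41 (adjusted p = 0.00013). Of the 1207 genes called in that test, 538 were called when the 4 mice with liver markers were left out.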

How the data were processed

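RNA from the gastrocnemius of 56 mice was sequenced, and the authors deposited 1 table of whole-number read counts per gene without normalization. Per the labels, libraries were made with a QuantSeq kit for 3′ ends and read over 50 bases, whereas the methods of the study describe a ribosomal-depletion kit, so levels are not compared between genes. The submitters' processing notes name GRCm38/mm10, R 4.0.3 and edgeR 3.38.4; the aligner is not given in the sources used here.

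Genes were placed on chromosomes with GENCODE M21. The counts of the 28 mice with locked wheels were filtered for expression and scaled by TMM (edgeR 4.0.16), and limma 3.58.1 with voom weights was fitted to the 4 groups, with Benjamini-Hochberg adjustment over all 13486 genes tested and a threshold of 0.05, two-sided. CPM values are TMM-scaled. Running mice were scaled and fitted separately, and all 56 were fitted for the difference between wheel states. The steps were tested on simulated data. Depth is given with the results. Averaged over genes, replicates differed by 4.69 to 21.4 times the variance of counting alone, and no pair was a repeated library. This average does not describe genes with few counts, for which the share of counting error was not measured. Labels give separate mice as the samples.

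The gene lists, the genes described and the comparison itself were chosen with earlier results of these data known. Genes named were the called members of the lists and the uncalled members that define a list, among called protein-coding genes the 12 that rose most and the 12 that fell most, given a mean of 10 counts or more and no overlap, and up to 5 genes with the smallest adjusted p in each test of a difference between sex differences. Alternatives changed the scaling, filter, test, samples and covariates, and left out each mouse in turn. Replicate numbers 16, 18 and 20 occur in both sexes, but deviations of same-numbered mice correlated by -0.00319 to 0.171, so the numbers do not pair the mice. Genes off the autosomes were left out, and a few list members are counted but not reported here by name.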

Additional observations from a re-analysis of the deposited data

Results flagged for a closer look

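Single mice stood far from the rest of their group, by Dixon's test, in 26 of 188 checks of a named gene or a summed list in the 7 females or the 7 males, where chance gives about 5% of checks. FC15 had the highest Alb (1695 CPM) and Cd1d1 (9.6 CPM) of the females and the highest summed liver markers (5925 CPM). MC19 had the highest Alb (261 CPM), Hba-a1 (362 CPM), summed erythroid markers (1945 CPM) and summed liver markers (1502 CPM) of the males, and a Pax7 level of 5.1 CPM. FC12 stood apart for Csf1r (35.7 CPM), summed macrophage and leukocyte markers (706 CPM) and Cacna2d4 (0.285 CPM).

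By Dixon's test MC20 stood above the other males in the sums of 5 lists. These were glucocorticoid-responsive genes (3302 CPM), muscle mass and atrophy control (4814 CPM), the growth hormone and IGF axis (1550 CPM), sex steroid and nuclear receptors (1146 CPM) and fiber-type regulators (3512 CPM). Without MC20 the genes higher in females numbered 957 and those lower 1060. FC18 differed from the other females in Luc7l2 (158 CPM) and summed glycolysis (15649 CPM), and FC32 in summed neuromuscular genes (509 CPM) and Slc15a5 (0.79 CPM). MC31 differed in Retn (11.5 CPM) and summed Schwann cell markers (327 CPM), MC17 in Slc30a2 (13.4 CPM) and summed amino acid genes (1279 CPM), MC29 in Cd27 (3.64 CPM) and FC20 in C7 (1.18 CPM).

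The genes checked here were the largest rises and falls, those that define a list and those that led the test between wheel states. Other list members, Hk2 among them, also differed by that test but are not counted here. Of the genes checked, 13 had a sex difference that differed between locked and running controls by limma's test of that difference. It was larger in locked mice, on the log2 scale, for Gm765 (3.22), Cdo1 (1.49), Cfd (1.45), Hba-a1 (1.37), Csf1r (1.09) and Igf1 (1.09). It was more negative in locked mice for Gm43063 (-2.39), Gm43185 (-2.32), Gm42432 (-2.14), Luc7l2 (-0.78), Phkg1 (-0.73), Mstn (-0.59) and Myh4 (-0.50).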

How the results depend on the processing

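The counts of genes higher (1251) and lower (1300) in females stayed within 1.5 times under other scalings, filters and tests, with 14 or 56 mice fitted and with liver markers as a covariate. They became 749 and 413 with a fold change of 1.5 or more, 115 and 201 with adipocyte markers as a covariate, and 581 and 720 without the 4 mice with the most liver markers, where the 1207 genes differing between wheel states became 538. With a block for replicate number, fitted to the 14 control mice, they were 723 and 775. That fit takes the sex difference only from mice with the 3 numbers shared by the sexes, and these numbers do not pair the mice. With 1 mouse left out the counts of genes higher and lower ranged from 957 to 1287 and from 1060 to 1273. Genes differing between wheel states ranged from 900 to 1321, and genes differing between genotypes stayed at 0. Adipocyte markers themselves differed by sex, so that covariate cannot separate adipocyte content from sex. The cause of these shifts in counts was not tested.

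Pecam1, near 0, turned negative with DESeq2 size factors (-0.0019), 14 mice (-0.0030), 56 mice (-0.0103), liver markers as a covariate (-0.0018), adipocyte markers as a covariate (-0.0424), without the 4 mice (-0.0945) and with each of 7 mice left out (-0.0377 to 0.0699 over all 14). Esr1 was -0.0031 with the liver covariate, and Adipoq (-0.10) and Tnni1 (-0.0129) turned with the adipocyte covariate, which is computed from genes including Adipoq. Myh7, at an adjusted p of 0.0516, passed in 8 other settings (0.58 to 0.79, adjusted p from 0.00145 to 0.0491). Bulk counts cannot separate changes in cell number from changes per cell, and depth limits statements on genes with few counts, such as Odc1 or Myh7b.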

Other observations

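Several groups of genes outside the pathways above were measured in the same mice. Of 20 early genes listed, 18 were tested, and Nr4a2 was higher in females beside Nr4a3, at 2.53 to 6.69 CPM (median 4.04) in females and 1.59 to 3.14 CPM (median 2.30) in males (log2 fold change 0.96 ± 0.34, adjusted p = 0.0419), although leaving out 1 mouse ended the call for Nr4a2 in 10 of 14 cases, with adjusted p from 0.0507 to 0.0969. Jun, a subunit of the AP complex of early transcription factors, was lower (log2 fold change -0.44 ± 0.14, adjusted p = 0.0186) and did not pass without MC20 (adjusted p = 0.0583). Of 27 chaperones 2 were higher and 3 lower, near the shares of all autosomal genes. Hsp90b1, of the endoplasmic reticulum, was 137 to 167 CPM (median 152) in females and 102 to 124 CPM (median 118) in males (log2 fold change 0.41 ± 0.06, adjusted p = 1.92e-05) and Bag3, which clears damaged sarcomere proteins, was 65.3 to 79.5 CPM (median 75.2) in females and 84.4 to 122 CPM (median 94.6) in males (log2 fold change -0.40 ± 0.09, adjusted p = 0.0016). The sexes did not overlap for either of these 2 genes.

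Creatine kinase of muscle, Ckm, was 9796 to 11703 CPM (median 10775) in females and 12366 to 15046 CPM (median 12859) in males, without overlap (log2 fold change -0.33 ± 0.06, adjusted p = 0.000241), and 0.16 (adjusted p = 0.332) in running controls. In the tricarboxylic acid cycle and pyruvate oxidation 3 of 29 genes were higher and 3 lower, near the 9.61% and 9.99% of all autosomal genes, with malate dehydrogenase Mdh1 (log2 fold change 0.48 ± 0.08, adjusted p = 0.000128) and pyruvate carboxylase Pcx (0.81) among the higher ones. Of 16 ion channels and pumps 5 were lower, including the chloride channel Clcn1 (log2 fold change -0.47 ± 0.12, adjusted p = 0.0068) and the sodium channel Scn4a (-0.48), and 2 were higher. Asparagine synthetase, Asns, was higher (1.53) and the amino acid transporter Slc38a2 lower (log2 fold change -0.88 ± 0.12, adjusted p = 7.76e-06), the latter also in running controls (-0.57, adjusted p = 0.000473).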
